A study of Mus musculus with 9 samples.

Results

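Glypicans and syndecans are the heparan sulfate proteoglycans of the cell membrane. Their genes are the 10 members described here, Gpc1 to Gpc6 and Sdc1 to Sdc4, chosen by symbol among the 47643 genes in the files. All 10 were found by their Ensembl identifier. Reads were counted for 8 of them, and the same 8 had a sum of at least 100 reads over the libraries, the minimum for a test, while Gpc2 and Gpc5 had no read in any library.

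The libraries came from pancreatic ductal adenocarcinoma (PDAC) cells sorted by FACS from mice, as 6 libraries of GFP+Yap+ cells (genotype KPF) and 3 libraries of Tm+Yap- cells (genotype KPYYF). Both genotypes carried Trp53 frt/+, Pdx-Flp and R26 FSF-CreER/Dual, and only KPYYF mice were also Yap flox/flox. Flp under the Pdx promoter acts in the pancreatic lineage, where it deletes the frt allele of Trp53 and turns on GFP, and CreER activated by a tamoxifen (TAM) diet, given once tumors were palpable, exchanges GFP for tdTomato (Tm) and deletes floxed Yap. Mice of both groups received TAM, GFP+ marks cells in which the reporter had not been exchanged. Mice of both sexes and a wide span of ages entered the study, and the labels give no age for a single mouse. The study's text places the sequenced cells in nodules that had relapsed under TAM, where Tm+Yap- cells had grown out after Yap was lost. Genotype, Yap status, reporter color and outgrowth after relapse changed together, so their parts in any difference cannot be told apart. Xist reads were not balanced either, at 3452 to 16108 in KPYYF and 71 to 10933 in KPF libraries. They numbered 79, 71 and 159 in KPF libraries 4269, 4515 and 4601, and the main fit had no covariate for sex. The KPF libraries 4504h and 4504s bear the same mouse number and were also analysed as a sum.

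A heparan sulfate proteoglycan is a core protein that carries long sulfated sugar chains, and these chains bind growth factors, morphogens, chemokines and matrix proteins and present them to their receptors. Glypicans are held to the outer membrane leaflet by a glycosylphosphatidylinositol (GPI) anchor and have no cytoplasmic part, whereas syndecans cross the membrane and bind PDZ proteins through a short cytoplasmic tail. Glypican-1 and syndecan-1 are both well known in pancreatic cancer, glypican-1 as a co-receptor for heparin-binding growth factors and syndecan-1 as the main syndecan of epithelial cells.

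Library size differed little between the groups. Genes took 8264587 to 9635514 reads in KPF libraries and 8116539 to 8725132 reads in KPYYF libraries. Values are given as CPM, read counts scaled by library size and TMM factor, which for these 3′ end libraries are not divided by transcript length, since a transcript gives reads at its 3′ end only. Yap1 lay between 41.7 and 150.5 CPM in KPF and between 0.711 and 7.10 CPM in KPYYF libraries, in the direction of the labels, with a log2 fold change of -4.79 (edgeR adjusted p = 0.0159). Summed over the whole list, the epithelial markers were lower in every KPYYF library, at 558 to 1845 CPM against 3198 to 11041 CPM in KPF, with all 8 of 8 below 0 on the log2 scale and 2 of 8 past the adjusted threshold. The fibroblast list overlapped in its sum, at 409 to 5428 CPM in KPF and 1127 to 3101 CPM in KPYYF. Of its 8 genes, 6 lay above and 2 below 0 on the log2 scale, and 0 passed the adjusted threshold. Immune markers reached 7356 CPM in KPF library 4601 and lay between 333 and 1243 CPM in the other 8 libraries. Acinar markers reached 13159 CPM in KPF library 4504s and 2923 CPM in KPYYF library 4449, and no other library passed 635 CPM, with Amy2a5 at 0 in all 9. Endothelial markers summed to 16.3 to 89.8 CPM in KPF and 21.0 to 39.3 CPM in KPYYF, plasma cell markers to 28.7 to 570 CPM and 18.6 to 45.0 CPM, and Schwann cell markers to 18.1 to 96.7 CPM and 0.545 to 7.34 CPM, with Sox10 and Cdh19 at 0 in all 9.

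Across the 8 genes with reads, 0 passed an adjusted p of 0.05 between KPYYF and KPF cells in edgeR's quasi-likelihood test, where 155 of 14105 genes tested did, or 1.1%. The DESeq2 Wald test called 1 of the 8, Gpc1, beside 269 higher and 928 lower of all 14105 genes, and limma-voom called 0 of the 8. By the rule of the study's methods, which asks for more than a 2-fold change with an unadjusted p under 0.05, 1 of the 8 was called, Gpc1, against 13.4% of all genes tested. An unadjusted p under 0.05 alone was reached by 2 of the 8, Gpc1 and Sdc4, against 16.1% of all genes. Only Gpc1 had groups that did not overlap, 1 of 8 against 9.1% of all genes. The median log2 fold change of the 8 was -0.28, beside -0.07 over all genes tested, with 3 above 0 and 5 below. These counts are near the background shares, so the differences are given gene by gene.

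**Figure D1:**
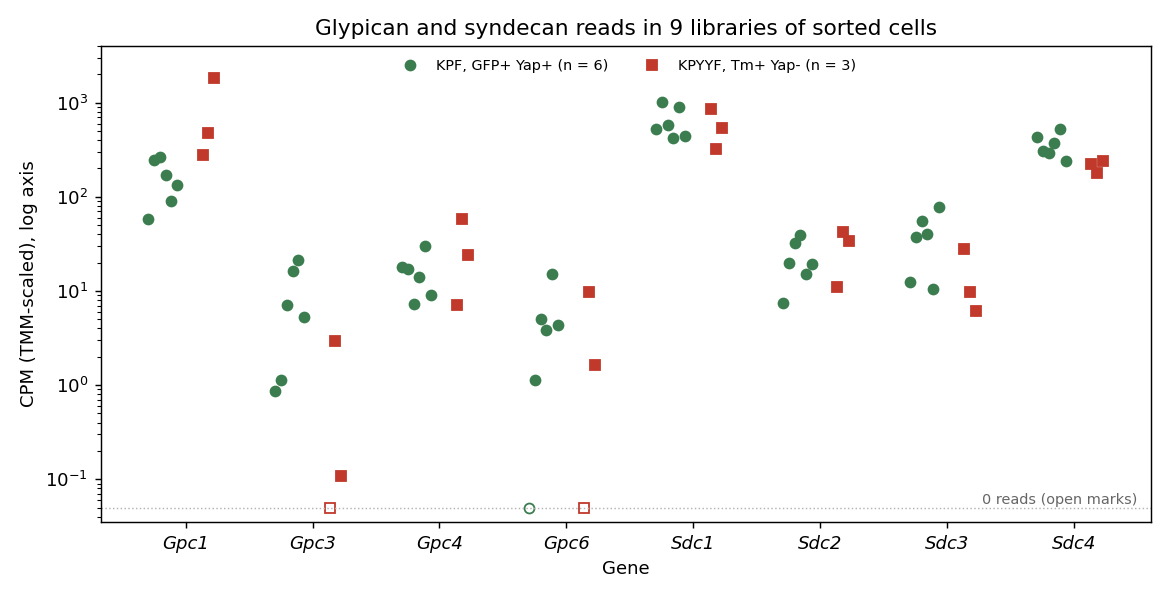
Level of each detected glypican and syndecan gene in CPM (TMM-scaled, log axis) in 6 KPF (green circles) and 3 KPYYF (red squares) libraries, 1 mark a library, open marks at the dotted line for libraries with 0 reads. The KPYYF marks of Gpc1, from 277.8 to 1828 CPM, all lie above the KPF marks, while the groups overlap in every other gene shown.

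Gpc1 (ENSMUSG00000034220, chr1:92831645-92860779 on the plus strand, GRCm38) encodes glypican-1. In KPF libraries it was measured at 58.4 CPM in 4269, 247 in 4435, 263.7 in 4504h, 171 in 4504s, 89.2 in 4515 and 133 in 4601. In KPYYF libraries it was at 277.8 CPM in 4449, 477 in 4891 and 1828 in 4938. Every KPYYF library was thus higher than every KPF library, by a narrow margin in 4449 and by a wide one in 4938. The KPYYF mean was 861 ± 844 CPM (SD, n = 3) and the KPF mean 160 ± 83.1 CPM (SD, n = 6). The reads behind these values numbered 602 to 2587 in KPF and 2346 to 16729 in KPYYF libraries, so that counting error was small beside the spread between libraries.

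The log2 fold change of Gpc1 was 2.42 (SE 0.58, 95% interval 1.14 to 3.71), a 5.37-fold difference. edgeR gave an unadjusted p of 0.00162 and an adjusted p of 0.0819, above the threshold. The exact permutation test, two-sided and on log2 CPM, gave p = 0.0119, the smallest p that 6 against 3 libraries allow. Under 19 alternative settings Gpc1 kept its direction and met the methods' rule each time. Its adjusted p fell below 0.05 in 2 of them, the DESeq2 Wald test (7.48e-04) and the fit without KPYYF library 4449 (0.0334). The size of the difference rested on KPYYF library 4938, without which the log2 fold change was 1.24 (adjusted p = 0.297).

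**Figure D2:**
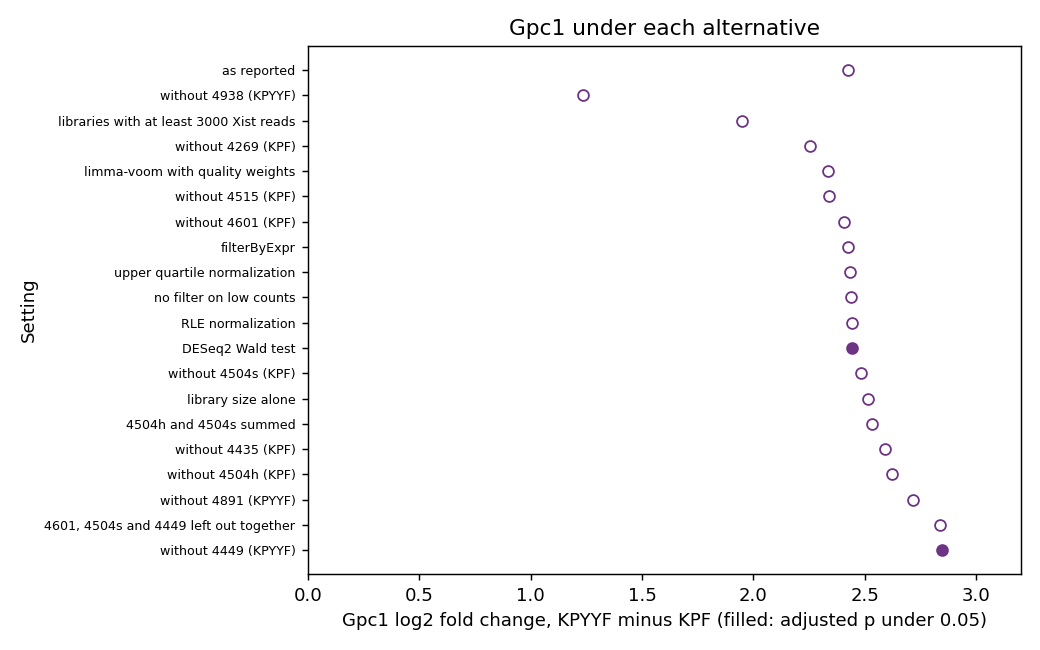
Gpc1 log2 fold change, KPYYF minus KPF (x axis), as reported and under each of 19 alternative settings (y axis), with filled marks for an adjusted p under 0.05. All values lie above 0, from 1.24 without KPYYF library 4938 to 2.85 without KPYYF library 4449.

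The last 500 exonic bases of Gpc1 all overlap an exon of Ankmy1 on the opposite strand, and 18.9% of its exonic bases do so in all. Ankmy1 was counted at 0 in all 9 libraries. Whether strand was used in counting is not given in the sources used here. An intron of Gpc1 hosts mmu-miR-149, whose mature sequences are shown because their hairpin shares the Gpc1 transcript. Small RNA was not measured here. In the sequences below, from RefSeq (GRCm38.p6), capitals mark the seed, bases 2 to 8, and the 5p arm lies at chr1:92850381-92850403 and the 3p arm at chr1:92850421-92850442, both on the plus strand.

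mmu-miR-149-5p: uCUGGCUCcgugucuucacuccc

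mmu-miR-149-3p: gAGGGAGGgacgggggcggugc

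Gpc3 and Gpc4 neighbour each other on the X chromosome, with 107.2 kb between them. Gpc3 (ENSMUSG00000055653, chrX:52272426-52613950, minus strand) encodes glypican-3, an oncofetal protein whose loss leads to overgrowth. It was low, with 9, 11, 69, 144, 192 and 36 reads in KPF libraries 4269, 4435, 4504h, 4504s, 4515 and 4601, or 0.873 to 21.2 CPM. In KPYYF libraries it had 0 reads in 4449, 27 in 4891 and 1 in 4938. Library 4891, at 2.94 CPM, lay above KPF libraries 4269 and 4435, so the groups overlapped. The log2 fold change was -3.06 (SE 1.56, 95% interval -6.43 to 0.30), with an edgeR adjusted p of 0.363 and p = 0.0595 in the exact permutation test. Without KPYYF library 4891 it was -6.95 (adjusted p = 0.171, range over 19 alternatives 0.135 to 0.581), a fitted value against libraries with 0 and 1 reads and no bound on the fold. A count of 0 allows up to 0.355 CPM in library 4449, so at this depth the gene was near the limit of detection in 2 of the 3 KPYYF libraries.

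Gpc4 (ENSMUSG00000031119, chrX:52053021-52165252, minus strand) encodes glypican-4, which takes part in Wnt signaling. It was at 17.8, 17.1, 7.24, 14.2, 30.1 and 9.01 CPM in the KPF libraries, in the order above, and at 7.11 CPM in 4449, 57.9 in 4891 and 24.2 in 4938. Its KPYYF values thus held both the lowest and the highest of the 9. The log2 fold change was 0.90 (SE 0.61, 95% interval -0.41 to 2.21, edgeR adjusted p = 0.512), and without KPYYF library 4891 it was -0.0229. Since both genes are X-linked, the 6 libraries with at least 3000 Xist reads, 3 of each group, were also compared on their own. The KPF libraries among them were 4435, 4504h and 4504s, of which 4504h and 4504s bear the same mouse number. Gpc3 then had a log2 fold change of -2.97 and Gpc4 one of 1.24 (edgeR adjusted p = 0.578 and 0.563), and over 19 alternatives the adjusted p of Gpc4 ran from 0.233 to 0.992.

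Promoters of 7 of the 10 genes were matched in RefSeq (GRCm38.p6), and those of Gpc1, Gpc6 and Sdc2 were not. The RefSeq start is not always that of GENCODE. The 250 bases before it lie wholly inside the GENCODE gene for Gpc4, where all 250 are exonic, and for Sdc4, where 0 are, and 68 and 73 of them lie in the first exon of Gpc2 and Sdc1. Yap acts on DNA through TEAD factors, whose core motif, CATTCC or its reverse complement GGAATG, occurs in this window in 1 of the 7, Gpc4, and in 12.6% of 32851 promoters. The AP-1 motif TGANTCA was in 0 of the 7 and 6.75% of all promoters, and the E-box CAGGTG or CACCTG in 0 of the 7 and 17.2%, both strands searched. A match describes the letters only.

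Gpc6 (ENSMUSG00000058571, chr14:116925315-117976544, plus strand) encodes glypican-6 and lies 400.1 kb downstream of Gpc5. It was at 0 CPM in KPF library 4269, 1.12 in 4435, 4.99 in 4504h, 3.86 in 4504s, 15.1 in 4515 and 4.36 in 4601. In KPYYF libraries it was at 0 CPM in 4449, 9.71 in 4891 and 1.64 in 4938. Both groups therefore ran from 0 to about the same level, and the interval of the difference was wide, -3.77 to 3.02 around a log2 fold change of -0.37 (SE 1.58, edgeR adjusted p = 0.946).

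Gpc5 (ENSMUSG00000022112, chr14:115092215-116525179, plus strand) had 0 reads in all 9 libraries, which allows a level of up to 0.291 to 0.436 CPM, depending on the library. Gpc2 (ENSMUSG00000029510, chr5:138273655-138280005, minus strand) also had 0 reads, but its 0 is no measure of its level. Its last 500 exonic bases, where a 3′ end library takes its reads, are all shared on the same strand with the predicted gene Gm43720, which was counted at 0 as well. A read there belongs to both annotations.

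Sdc1 (ENSMUSG00000020592, chr12:8771323-8793715, plus strand) encodes syndecan-1, a receptor of epithelial and plasma cells whose outer part is shed by proteases. It had the highest level of the family in all 6 KPF libraries, at 522 CPM in 4269, 1013 in 4435, 578 in 4504h, 426 in 4504s, 904 in 4515 and 447 in 4601. The KPYYF libraries had 849 CPM in 4449, 326 in 4891 and 540 in 4938. The groups overlapped widely, with KPYYF library 4891 the lowest of all 9. Sdc1 had a log2 fold change of -0.18 (SE 0.37, 95% interval -0.97 to 0.61, edgeR adjusted p = 0.868). Plasma cell markers reached 570 CPM in KPF library 4601, where Sdc1 was among the lowest, and the part of plasma cells in the Sdc1 level was not tested.

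Sdc4 (ENSMUSG00000017009, chr2:164424247-164443887, minus strand) encodes syndecan-4, which works with integrins at focal adhesions. It was at 435 CPM in 4269, 303 in 4435, 288 in 4504h, 374 in 4504s, 529 in 4515 and 238.0 in 4601. In KPYYF libraries it was at 223 CPM in 4449, 179 in 4891 and 242 in 4938. The KPYYF values were the lowest apart from KPF library 4601, which fell just below 4938. The KPF mean was 361 ± 108 CPM (SD, n = 6) and the KPYYF mean 215 ± 32.3 CPM (SD, n = 3), 1.68-fold lower. The log2 fold change was -0.75 (SE 0.30, 95% interval -1.39 to -0.11), with edgeR p values of 0.0251 before and 0.227 after adjustment and p = 0.0476 in the exact permutation test. It stayed below 0 in all 19 alternative settings, from -0.86 to -0.57, and never reached an adjusted p under 0.05, with 0.152 the smallest. Its unadjusted p was above 0.05 in 4 of them, with scaling by library size alone (0.0578), in the libraries with at least 3000 Xist reads (0.0723), without KPF library 4515 (0.0624) and without KPYYF library 4891 (0.0970). Epithelial markers were lower in the same KPYYF libraries (values above), and their part in the Sdc4 difference was not tested.

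Sdc3 (ENSMUSG00000025743, chr4:130792537-130826319, plus strand) encodes syndecan-3, best known from the nervous system. It was at 12.3 CPM in 4269, 37.1 in 4435, 55.6 in 4504h, 40.3 in 4504s, 10.6 in 4515 and 78.8 in 4601. Its KPYYF values were 27.9 CPM in 4449, 9.71 in 4891 and 6.12 in 4938. KPYYF libraries 4891 and 4938 were the lowest of all, but 4449 lay within the KPF range. The log2 fold change was -1.42 (SE 0.70, 95% interval -2.93 to 0.09, edgeR adjusted p = 0.344, exact permutation p = 0.143). KPF library 4601, with the highest Sdc3, was also the library with the highest immune markers, and without it the log2 fold change was -1.09 (adjusted p = 0.484). The part of immune cells in the Sdc3 difference was not tested. Without KPYYF library 4449 the log2 fold change was -2.30 (adjusted p = 0.170). Over 19 alternatives the adjusted p ran from 0.170 to 0.586, and the methods' rule was met in 8 of them.

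Sdc2 (ENSMUSG00000022261, chr15:32920723-33034935, plus strand) encodes syndecan-2, typical of mesenchymal cells. It was at 7.47 CPM in 4269, 19.7 in 4435, 32.1 in 4504h, 38.8 in 4504s, 15.2 in 4515 and 19.2 in 4601, and at 11.0 CPM in 4449, 42.4 in 4891 and 33.8 in 4938. Fibroblast markers summed to 409, 1908, 3969, 5428, 2238 and 515 CPM in the KPF libraries in the same order, and to 1366, 3101 and 1127 CPM in those of KPYYF. The order of both measures matched at the extremes of KPF but not throughout, since KPYYF library 4938 had the lowest fibroblast marker level of its group and more Sdc2 than 4449. Their part in the Sdc2 level was not tested, and in sorted bulk cells fewer cells of a type and less RNA per cell cannot be told apart. Sdc2 had a log2 fold change of 0.40 (SE 0.55, 95% interval -0.79 to 1.58, edgeR adjusted p = 0.790).

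**Figure D3:**
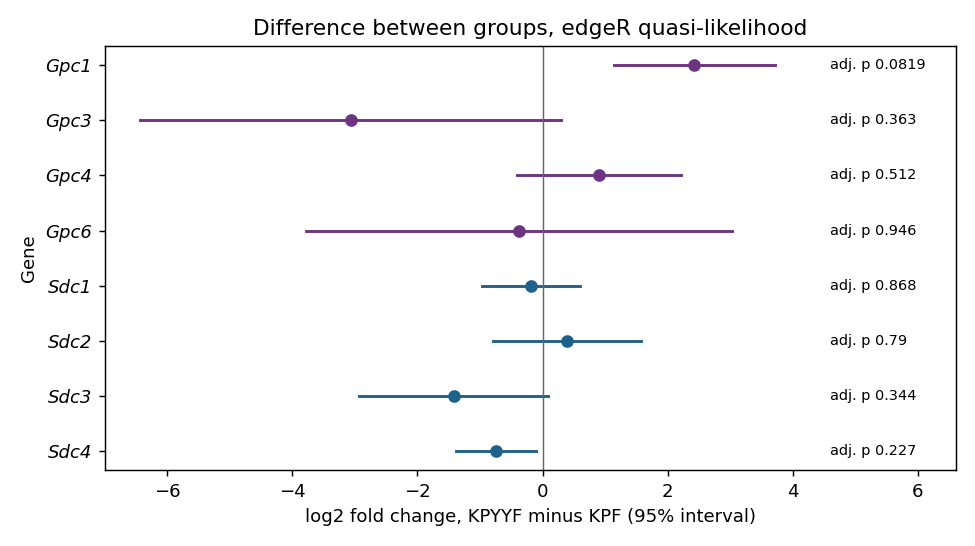
Log2 fold change, KPYYF minus KPF, of the 8 detected genes (dots) with its 95% interval (lines), glypicans in purple and syndecans in blue, and the edgeR adjusted p at the right. The intervals of Gpc1 (1.14 to 3.71) and Sdc4 (-1.39 to -0.11) do not reach 0, and no adjusted p is under 0.05.

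The order of the levels within a library was the same at the top of all 6 KPF libraries, Sdc1, then Sdc4, then Gpc1. It was Sdc1, Gpc1 and Sdc4 in KPYYF library 4449, and Gpc1, Sdc1 and Sdc4 in 4891 and 4938. Mean KPF levels then descended from Sdc3 (39.1 ± 26.0 CPM, SD, n = 6) over Sdc2 (22.1 ± 11.5), Gpc4 (15.9 ± 8.16) and Gpc3 (8.64 ± 8.34) to Gpc6 (4.91 ± 5.37), and between libraries the ranges of all neighbours in this order overlapped, those of the top 3 included. In KPYYF libraries Gpc4 (29.7 ± 25.9 CPM, SD, n = 3) and Sdc2 (29.1 ± 16.2) were followed by Sdc3 (14.6 ± 11.7), Gpc6 (3.78 ± 5.20) and Gpc3 (1.02 ± 1.67), also with overlapping ranges. Sdc4, at 179 to 242 CPM there, overlapped neither Sdc1 above it nor Gpc4 below it.

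As a share of the summed reads of the 10 genes, Gpc1 made up 5.52 to 21.3% in KPF libraries. In KPYYF libraries it made up 19.9% in 4449 (95% Wilson interval 19.2 to 20.6%), 43.2% in 4891 (42.2 to 44.1%) and 68.3% in 4938 (67.7 to 68.9%). Library 4449 was thus within the KPF range and the other 2 KPYYF libraries were far above it. Sdc1 took 39.2 to 61.8% in KPF and 60.8, 29.5 and 20.2% in the 3 KPYYF libraries in the same order, and Sdc4 took 18.5 to 41.3% and 16.0, 16.3 and 9.06%. Together the syndecans held 77.1 to 92.7% of the reads in KPF libraries, and 79.6, 50.4 and 30.7% in the KPYYF libraries. The summed level of the 10 genes was 934 to 1639 CPM in KPF libraries and 1396, 1105 and 2677 CPM in KPYYF libraries, so only 4938 exceeded the KPF range. The syndecans alone summed to 783 to 1459 CPM in KPF and to 1111, 557 and 823 CPM in KPYYF libraries. The intervals cover counting error only, and shares carry no test.

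**Figure D4:**
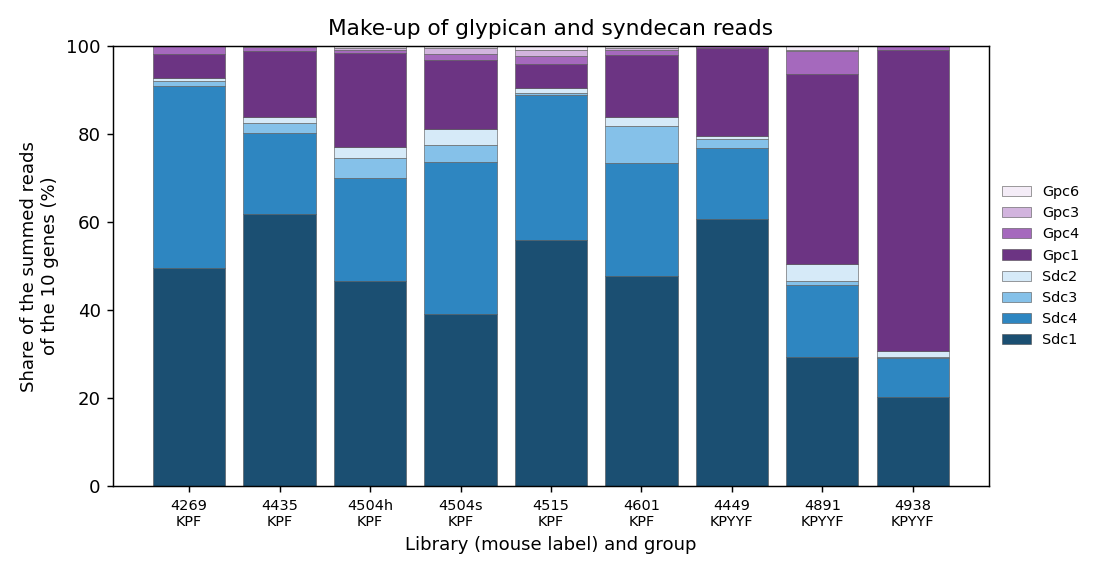
Share of each gene in the summed reads of the 10 glypican and syndecan genes (y axis, percent) in each library (x axis, mouse label and group), syndecans in blues below and glypicans in purples above. Gpc1 takes at most 21.3% in KPF libraries, and 19.9, 43.2 and 68.3% in KPYYF libraries 4449, 4891 and 4938.

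Genes whose log2 CPM followed a member most closely over the 9 libraries were looked up among 9171 genes with a mean of at least 10 CPM, with Pearson's r as the measure. The 9 points share group, mouse and depth, so r is a description. Gpc1 was followed by Trim47 (r = 0.97) and by Rpsa (r = 0.96), which encodes a ribosomal protein and laminin receptor. The nearest to Sdc2 were Cd248 (r = 0.97), a marker of stromal cells and pericytes, and Cep131 (r = 0.95). The nearest to Sdc3 were Syk (r = 0.94), a kinase of immune cells, and Taf10 (r = 0.93). Sdc4 was nearest to Osbpl3 (r = 0.95) and to the junction scaffold Magi1 (r = 0.93), and Sdc1 to Sema4b (r = 0.94) and Mrtfb (r = 0.93). Gpc3 was nearest to Dpep1 (r = 0.96) and Slc25a48 (r = 0.94), Gpc4 to Gatad2a (r = 0.94) and Ppp2r2d (r = 0.91), and Gpc6 to Tab3 (r = 0.95) and Hdac3 (r = 0.94).

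Of 75 other genes of the pathway, from chain synthesis to the ligands, 62 were tested. In edgeR's test 1 was higher and 0 were lower at an adjusted p under 0.05, 17 had an unadjusted p under 0.05 (16.1% of all genes tested did), and 3 higher and 11 lower genes met the methods' rule. Over all genes tested this rule was met by 592 higher and 1298 lower genes, or 4.2% and 9.2%, and these are the shares to read each list below against. The DESeq2 Wald test called 3 higher and 10 lower at its adjusted p, beside 269 higher and 928 lower of all 14105 genes. With limma-voom 1 was called, Cask, beside 43 higher and 44 lower of all genes. The median log2 fold change of the 62 was -0.32, beside -0.07 over all genes tested. Groups did not overlap in 4 higher and 6 lower of the 62, against 9.1% of all genes tested in either direction.

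Of the 10 tested enzymes that start and lengthen the heparan sulfate chain, 5 lay above and 5 below 0 with a median log2 fold change of 0.03. Here 0 met either rule in edgeR, 0 had an unadjusted p under 0.05, and DESeq2 and limma-voom called 0. Ext1, a subunit of the chain polymerase, ran from 62.1 to 223 CPM in KPF and 68.6 to 136 CPM in KPYYF libraries, with a log2 fold change of -0.48 (adjusted p = 0.652). Extl3 was 0.66 higher on the log2 scale (adjusted p = 0.464) and the xylosyltransferase Xylt2 0.60 higher (adjusted p = 0.570), both with overlap between groups, and without KPYYF library 4891 Xylt2 was at -0.16. Of 9 tested sulfotransferases and related chain-modifying enzymes, 1 met the methods' rule and was also the only one that DESeq2 called. This was the 6-O-sulfotransferase Hs6st2, at 6.70 to 28.7 CPM in KPF and 2.84 to 6.89 CPM in KPYYF libraries, and its log2 fold change was -1.94 (SE 0.67, adjusted p = 0.169). Hs2st1, Ndst2 and Hs3st1 differed by -0.06, 0.80 and -1.42 on the log2 scale, with adjusted p between 0.326 and 0.964. Without KPYYF library 4449 the value of Hs3st1 was -2.88 and past the threshold (adjusted p = 0.0440), the only such setting of 19, and without KPYYF library 4891 that of Ndst2 was 0.10 (adjusted p = 0.952).

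Among 11 tested genes that edit the chains or release the core protein, 3 lay above and 8 below 0, with a median of -0.77, and 2 met the methods' rule. Sulf1, an extracellular sulfatase that removes 6-O-sulfate from heparan sulfate, was at 6.25 to 71.4 CPM in KPF and 0.545 to 6.12 CPM in KPYYF libraries. These TMM-scaled values did not overlap, but KPF library 4601 (43 of 8264587 reads) and KPYYF library 4938 (56 of 8725132 reads) were close. By library size alone the 2 changed places, so the groups then overlapped. The log2 fold change of Sulf1 was -3.78 (SE 1.09, adjusted p = 0.121), and -5.73 without KPYYF library 4938 (adjusted p = 0.0813). Sulf1 passed the threshold in 1 of 19 alternatives, DESeq2 (7.53e-04), and its adjusted p was highest with limma-voom (0.375). Mmp7, a protease that sheds syndecan-1, was at 12.6 to 419 CPM and 8.29 to 11.2 CPM, also without overlap (log2 fold change -4.08, SE 1.06, adjusted p = 0.105). With 4504h and 4504s summed Mmp7 passed the threshold (adjusted p = 0.0198), as it did without 4504h (0.0313) and with DESeq2 (4.53e-06). It did not pass in the remaining alternatives, with limma-voom the highest (0.459), and met the methods' rule in 18 of 19. Mmp14, the most abundant of the list, had a log2 fold change of -0.32 (adjusted p = 0.709), and Timp3, an inhibitor of such proteases, one of -1.05 (adjusted p = 0.458).

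Of 7 genes for proteins that bind the syndecan tail or work with it, 1 was higher and 1 lower by the methods' rule. Neither had overlap between groups in TMM-scaled values, as in 9.1% of all genes tested. Cask, a PDZ scaffold, was at 31.5 to 58.8 CPM in KPF and at 59.2, 167 and 114 CPM in KPYYF libraries 4449, 4891 and 4938 (log2 fold change 1.501, SE 0.35, adjusted p = 0.0589). The nearest libraries were KPF 4269 (606 of 9571323 reads) and KPYYF 4449 (500 of 8116539 reads), and by library size alone they changed places. Cask was past the threshold in 5 of 19 alternatives, with DESeq2 (0.00469), limma-voom (0.0333), no filter on low counts (0.0235) and without 4449 (0.0236). The remaining 1, with libraries 4601, 4504s and 4449 left out together (0.0413), was chosen after seeing the data. Sdcbp2, or syntenin-2, was at 46.5 to 252 CPM in KPF and at 29.1, 18.2 and 11.1 CPM in KPYYF libraries, in the same order (log2 fold change -2.75, SE 0.63, adjusted p = 0.0609), and passed in 4 alternatives, with adjusted p down to 8.80e-05 with DESeq2. Sdcbp, or syntenin-1, was at 605 to 924 CPM and 539 to 839 CPM and had a log2 fold change of -0.33 (SE 0.25, adjusted p = 0.559). Tiam1, an exchange factor for Rac, had one of -0.55 (adjusted p = 0.7996).

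Among other proteoglycans, 6 heparan sulfate and 10 chondroitin or dermatan sulfate core protein genes were tested, with medians of 0.52 and -0.19 and with 1 higher and 1 lower, and 1 higher and 2 lower, by the methods' rule. Cspg4, the NG2 chondroitin sulfate proteoglycan of progenitor cells and pericytes, was at 0.581 to 5.81 CPM in KPF and at 25.2, 6.43 and 103 CPM in those of KPYYF (log2 fold change 4.08, SE 0.80, adjusted p = 0.0351). In the edgeR fit as reported it was the only gene of these lists past the adjusted threshold, while others passed it under alternatives given beside them. It lost the call without any 1 of KPF libraries 4269, 4435, 4504s and 4515 or KPYYF library 4938, with adjusted p of 0.0657, 0.0733, 0.0740, 0.0762 and 0.279. Without 4938 its log2 fold change was 2.58. Over 19 alternatives its adjusted p ran from 8.39e-05 to 0.279, and it was also above 0.05 with limma-voom (0.164), in libraries with at least 3000 Xist reads (0.221) and with libraries 4601, 4504s and 4449 left out together (0.0618). Tgfbr3, or betaglycan, a co-receptor for TGF-beta, was at 2.47 to 26.4 CPM in KPF and at 38.2, 183 and 58.3 CPM in those of KPYYF (log2 fold change 3.12, SE 0.77, adjusted p = 0.0851), and without KPYYF library 4891 its log2 fold change was 2.17 (adjusted p = 0.257). It passed in 2 alternatives, DESeq2 (0.00136) and the 3 libraries left out together (0.0401). Agrn, a basement membrane proteoglycan, was at 101 to 524 CPM and at 68.4, 81.3 and 109 CPM (log2 fold change -1.88, SE 0.46, adjusted p = 0.0734). It passed with 4504h and 4504s summed (0.0476), without 4504h (0.0272), with no filter on low counts (0.0203) and with DESeq2 (0.00158). Col18a1 had a log2 fold change of 0.37 (adjusted p = 0.806). Of the matrix and immune proteoglycans, Bgn differed by -2.69 on the log2 scale (adjusted p = 0.145, past the threshold in 3 alternatives). Srgn differed by -2.79 (adjusted p = 0.233, past the threshold in 1 alternative, DESeq2 at 0.0102) and Cd44 by -0.66 (adjusted p = 0.411). Srgn, a proteoglycan of blood cells, reached 380 CPM in KPF library 4601, where immune markers were highest. Without that library it differed by -1.497 (adjusted p = 0.213), and the part of immune cells in the difference was not tested.

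Among 9 tested ligands that bind heparan sulfate, 2 lay above and 7 below 0, with a median of -1.15. The adjusted threshold was passed by 0 in edgeR and by 3 in DESeq2, all lower, where 928 of all 14105 genes were lower. An unadjusted p under 0.05 was reached by 5, against 16.1% of all genes tested. By the methods' rule 4 were lower, and 9.2% of all genes tested met it in that direction. These were the chemokine Cxcl12 (log2 fold change -4.03, SE 1.05, adjusted p = 0.0932), at 6.32 to 62.8 CPM in KPF and 0.118 to 4.36 CPM in KPYYF libraries, Thbs1 (-1.18, adjusted p = 0.123), Hbegf (-1.15, adjusted p = 0.202), and Fgf1 (-4.91, adjusted p = 0.0531). Cxcl12 and Thbs1 each passed the adjusted threshold in 1 of 19 alternatives, at 2.33e-04 and 0.0254, and Hbegf in 0. Fgf1, the growth factor that binds all FGF receptors, was named after its values were seen, and was at 4.75 to 26.1 CPM in KPF and 0.109 to 1.20 CPM in KPYYF libraries. It passed the threshold in 3 alternatives, with DESeq2 (1.49e-05), no filter on low counts (0.0152) and without KPF library 4601 (0.0485). Without KPYYF library 4938 its log2 fold change was -6.86 (adjusted p = 0.0562), and without 4891 that of Cxcl12 was -5.97 (adjusted p = 0.0553), while without 4449 that of Hbegf was -1.76 (adjusted p = 0.0764). Fn1, the most abundant of the list, had a log2 fold change of -0.43 (adjusted p = 0.638).

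**Figure D5:**
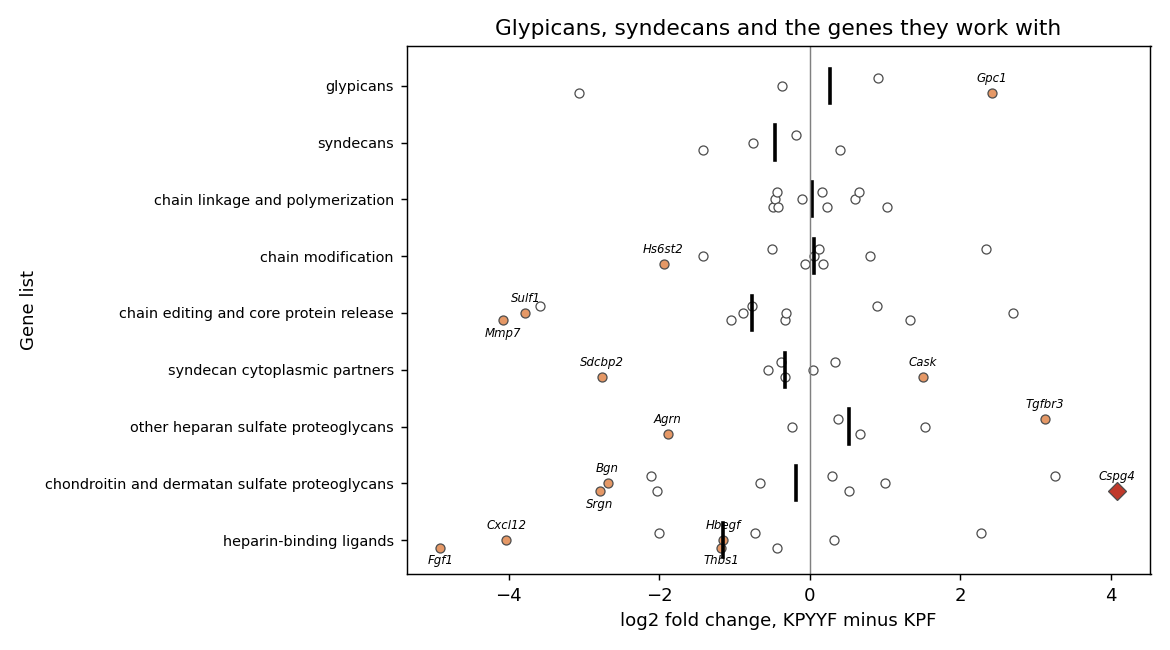
Log2 fold change, KPYYF minus KPF (x axis), of each tested gene by list (y axis), with a black bar at the list median, white circles for genes that meet neither rule, orange circles for more than a 2-fold change with an unadjusted p under 0.05, and a red diamond for an adjusted p under 0.05. Named genes are those that meet a rule, and Cspg4 (4.08) is the only red diamond, while Gpc1 (2.42) is the only labelled gene among the glypicans and syndecans.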

How the data were processed

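RNA of FACS-sorted GFP+ or Tm+ PDAC cells was made into Lexogen QuantSeq 3′ Fwd libraries, per the labels. The authors deposited 1 file a library, 9 in all, with raw read counts by Ensembl identifier. The submitters' processing notes name STAR, HTSeq and mm10, without versions. The study's methods describe BeadChip hybridization with DESeq2, and the deposited values are whole read counts. Summary lines were left out. Reads without a unique alignment were 43.8 to 48.5% of a KPF library and 49.2 to 53.4% of a KPYYF library, without overlap. Reads on genes were 38.5 to 42.0% and 37.3 to 38.2%, also without overlap. Those outside features were 11.0 to 16.0% and 8.63 to 13.2%, and ambiguous ones 0.231 to 0.312% over both groups. The part of this difference in the results was not tested. 0 columns were left unmapped.

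The 14105 genes whose counts summed to 100 or more were tested, KPYYF (n = 3) against KPF (n = 6), with edgeR 4.0.16's robust quasi-likelihood test in R 4.3.3, TMM factors (0.832 to 1.08), no covariates and p adjusted over all of these genes by Benjamini-Hochberg. Intervals are 95% intervals from that fit, with the SE taken as the absolute log2 fold change over the square root of its F statistic. An interval that leaves out 0 thus carries the same information as an unadjusted p under 0.05. All p values are two-sided. Exact permutation tests used all 84 ways to place 6 and 3 libraries, on log2 CPM with a prior count of 2. A count of 0 allows 3 reads, or 0.291 to 0.436 CPM. Libraries are labelled by mouse, and 4504h and 4504s by 1 number with 2 letters, so p values may in part measure spread within a mouse. Members and lists were chosen with earlier results of these data known. From each pathway list, the text names genes with an adjusted p under 0.05, the gene with the highest mean CPM and the 3 with the largest change and a mean of at least 10 CPM. Gene positions and overlaps come from GENCODE M21 (GRCm38), where 47224 of 47643 identifiers had a symbol. Alternatives were DESeq2 1.42.0, limma-voom (limma 3.58.1) with quality weights, other normalizations and filters, 4504h and 4504s summed, libraries with at least 3000 Xist reads, and each library left out. The tools were tested on simulated data. Figures were drawn with matplotlib 3.10.9. One allele that both groups share is not reported here.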

Additional observations from a re-analysis of the deposited data

Results flagged for a closer look

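In 34 genes the highest and the lowest of the 6 KPF libraries were compared with the rest of their group, and in 3 of them 1 library stood apart by more of the group's range than Dixon's limit for 6 values. Chance flags about 1 in 20 such groups. Gpc6 was at 15.1 CPM in KPF library 4515, above 4.99 CPM in the next library. Sdcbp was at 605 CPM in KPF library 4504s, the lowest of its group. Srgn was at 380 CPM in KPF library 4601, above 62.8 CPM in the next.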

How the results depend on the processing

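Gpc1, Gpc3, Sdc3 and Sdc4 kept their direction under all 19 alternatives. The number of the 8 genes with an adjusted p under 0.05 was 1 with DESeq2 and 0 to 1 with each library left out (1 without KPYYF library 4449). By the methods' rule it was 3 with DESeq2, 3 with no filter on low counts, 2 with limma-voom, 2 in libraries with at least 3000 Xist reads, 2 with libraries 4601, 4504s and 4449 left out together (chosen after seeing the data), and 1 to 3 with each library left out. Over all genes, those higher numbered 269 with DESeq2, 88 with no filter, 25 with 4504h and 4504s summed, 6 in the libraries with Xist reads and 6 to 75 with each library left out, against 43. Those lower numbered 928, 219 with no filter, 44 with limma-voom, 31 in the libraries with Xist reads, 177 with the 3 libraries left out together and 13 to 198 with each library left out, against 112. The cause was not tested.

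Leaving out each library moved the log2 fold change of Gpc4 between -0.0229 and 1.37, of Gpc6 between -2.56 and 0.44, of Sdc1 between -0.58 and 0.10, of Xylt2 between -0.16 and 0.93, of Hs2st1 between -0.23 and 0.23, of Tiam1 between -1.02 and 0.00452 and of Col18a1 between -0.36 and 0.78. In the libraries with Xist reads it was 0.21 for Gpc6, -0.0361 for Sdc2, 0.09 for Hs2st1 and -0.0614 for Col18a1. Gpc6 was at 0.11 with the 3 libraries left out together, and Hs2st1 at 0.24 with limma-voom. No paired analysis was possible because the mouse labels of the groups share no number. With 3 KPYYF libraries and a biological coefficient of variation of 0.825, depth was no limit for Gpc1, Sdc1 and Sdc4, and it was one for Gpc3, Gpc5 and Gpc6.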
